A study of Drosophila melanogaster with 2 samples.

Results

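The genes described here encode the nuclear subunits of the mitochondrial respiratory chain and ATP synthase of the fruitfly, together with paralogues whose symbols end in L. They were chosen by FlyBase symbol alone (ND-, COX and a digit, ATPsyn, UQCR-, Sdh, Cyt-c or RFeSP, not on the mitochondrial genome), a rule that uses no measured value but was set with earlier results of these data known. The rule found 93 genes among the 17698 genes of the table. Of these, 25 were L paralogues (the symbol ends in L or in L and a digit) and 65 were ubiquitous subunits. ND-MNLL was kept among the ubiquitous subunits, since its last letters belong to a peptide name. The other members were Cyt-c-d with Cyt-c-p, the pair of cytochrome c genes, and Sdhaf3, an assembly factor of complex II. The values came from 1 mRNA library prepared from total RNA of adult Drosophila melanogaster. The series holds 2 libraries, the other being of small RNA. No source used here gives the strain, sex, age, treatment or number of the flies behind the mRNA library, and the study's methods describe only the small RNA library. There is no replicate, so no difference below has a replicate check, and every interval covers counting error only.

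Electrons from NADH enter the chain at complex I and those from succinate at complex II. Complex III passes them to the soluble carrier cytochrome c, and complex IV hands them to oxygen. The proton gradient built on the way drives ATP synthase. Flies carry additional copies of many of these subunits, and a number of such copies are known for their use in the testis, where mitochondria are rebuilt along the growing sperm tail. A whole-adult library cannot show in which tissue a transcript was made. In such a library, fewer cells of a type and less RNA per cell cannot be told apart.

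All 93 genes were detected, with 68 to 28209 reads each of 26179479 reads in the library. Their level is given in TPM, a level that is divided by transcript length and scaled to the whole library, so that genes can be set side by side. Together the ubiquitous subunits held 2.20% of all TPM and the L paralogues 0.105%. RNA of both germ lines was present in the library. The 8 testis markers ranged up to 933.9 TPM for Mst87F, with the meiotic arrest genes aly and can lowest at 2.14 and 1.46 TPM. The 5 ovary markers lay between 63.5 and 5775 TPM, the 3 yolk protein genes between 542.9 and 913.5 TPM and the 3 accessory gland genes between 334.4 and 629.1 TPM. Of the 4 flight muscle markers, Mhc had 229.7 TPM, Act88F 23.6 TPM, fln 11.4 TPM and TpnC4 5.86 TPM, with a median of 17.5 TPM. The part of these tissues in the levels below was not tested. Positions were those of Release 6 of the genome for 93 of 93 members.

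The L paralogues were all less abundant than the subunits they resemble. Their median was 29.1 TPM, within a range of 7.48 TPM (ATPsynbetaL) to 129.3 TPM (COX4L), against a median of 256.0 TPM and a range of 25.2 to 987.1 TPM for the ubiquitous subunits. Only COX4L and COX6CL among the 25 paralogues reached 100 TPM, whereas 64 of 65 ubiquitous subunits did, ND-B8 being the exception. Of all genes in the table, 9.91% reached this level, and their median was 11.7 TPM. The mean of log2(TPM + 1) was lower in L paralogues than in ubiquitous subunits by a difference of -3.11. At a lower level of 10 TPM, which 51.9% of all genes reached, ATPsynbetaL and ATPsynepsilonL were the 2 members that fell short.

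**Figure D1:**
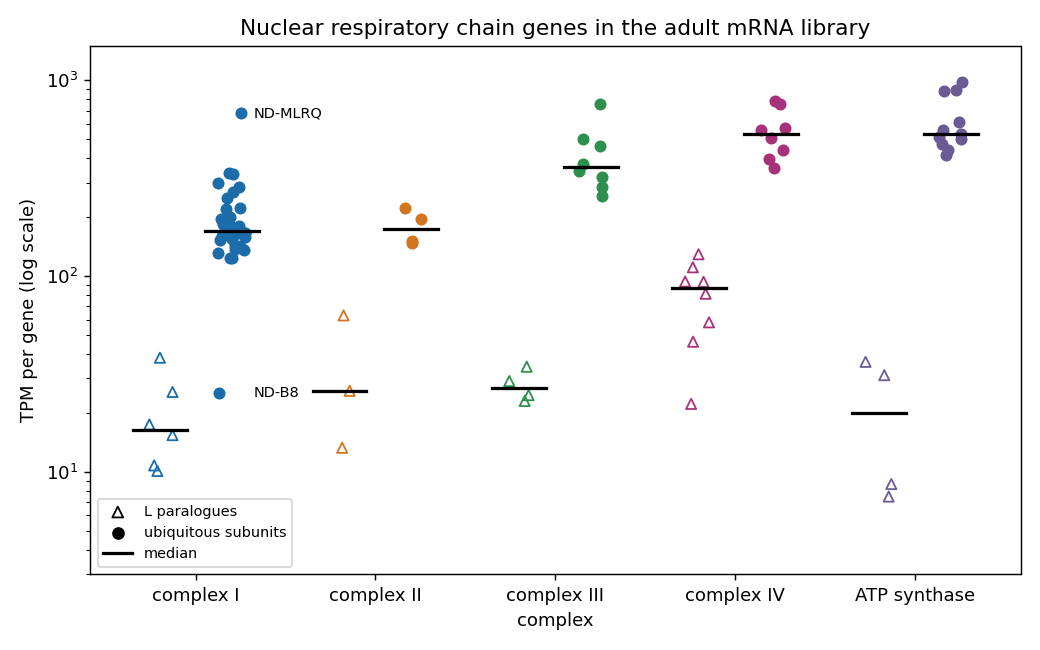
Level of each nuclear respiratory chain gene by complex, in TPM on a log axis. Open triangles are the 25 L paralogues, filled circles the 65 ubiquitous subunits, and bars the medians, and only in complex I do the 2 classes overlap, through ND-B8 at 25.2 TPM.

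Complex I, the NADH dehydrogenase, had 6 L paralogues and 34 ubiquitous subunits in the table. The paralogues lay between 10.1 and 38.3 TPM with a median of 16.4 TPM, and the ubiquitous subunits had a median of 169.6 TPM. The 7 core subunits, which carry the flavin and the iron-sulphur clusters or line the quinone site, were close to each other. They lay between 124.0 TPM for ND-49 and 185.1 TPM for ND-30, with the large iron-sulphur subunit ND-75 at 161.0 TPM and the flavin-binding ND-51 at 166.3 TPM. The 27 other subunits had a median of 176.0 TPM and a wider range.

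That range was set by a gene at each end. ND-MLRQ stood highest at 677.9 TPM (95% Poisson interval 658.1 to 698.1), 2.01-fold above the next one, ND-ACP, at 336.9 TPM (interval of the ratio 1.93 to 2.10). ND-ACP is the mitochondrial acyl carrier protein, which also serves fatty acid synthesis. The third was ND-B12, an orthologue of human NDUFB3, at 331.3 TPM. The human orthologue of ND-MLRQ, NDUFA4, was first listed with complex I and later assigned to complex IV. The level of ND-MLRQ, 677.9 TPM, lies within the range of the complex IV subunits, 356.4 to 784.8 TPM. It also lies within those of complex III, 256.0 to 754.7 TPM, and ATP synthase, 417.4 to 987.1 TPM.

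At the other end stood ND-B8, the orthologue of NDUFA2, at 25.2 TPM (interval 21.8 to 29.0) from 195 reads. It has 1 listed transcript and overlaps the gene Gs1l. The next lowest were ND-15, the orthologue of NDUFS5, at 123.9 TPM, and ND-49. ND-15 was 4.93-fold above ND-B8 (interval 4.23 to 5.76). Without ND-B8 and ND-MLRQ, which were left out after their values had been seen, the other 32 subunits spanned 2.72-fold.

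Complex II, succinate dehydrogenase, is built from nuclear genes alone. Its 3 paralogues were SdhBL at 63.0 TPM, SdhCL at 26.0 TPM and SdhAL at 13.3 TPM. Of the 4 ubiquitous subunits, the iron-sulphur protein SdhB was highest at 222.5 TPM, followed by the membrane anchors SdhC at 195.8 TPM and SdhD at 150.6 TPM, and the flavoprotein SdhA was lowest at 147.4 TPM. The whole spread of the ubiquitous subunits was thus 1.51-fold (interval of SdhB over SdhA 1.45 to 1.57). Sdhaf3, needed for maturation of the iron-sulphur subunit, had 64.3 TPM.

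Complex III, which oxidizes ubiquinol, had 4 paralogues between 23.0 and 34.5 TPM and 8 ubiquitous subunits with a median of 359.7 TPM. The small subunit UQCR-Q was highest at 754.7 TPM, followed by the core protein UQCR-C1 at 504.4 TPM and the Rieske iron-sulphur protein RFeSP at 460.5 TPM. Lowest were Cyt-c1, the haem subunit that hands electrons to cytochrome c, at 320.3 TPM, UQCR-6.4 at 285.7 TPM and UQCR-14 at 256.0 TPM. The core proteins UQCR-C1 and UQCR-C2 differed 1.46-fold (interval 1.42 to 1.50).

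Complex IV, cytochrome c oxidase, had the highest median of L paralogues. The 8 paralogues ranged between 22.3 and 129.3 TPM with a median of 87.4 TPM, and the 8 ubiquitous subunits between 356.4 and 784.8 TPM with a median of 533.3 TPM. COX4, an early-assembling subunit, had 784.8 TPM, COX5A had 755.9 TPM and COX7B had 572.7 TPM. At the low end were COX7A at 443.6 TPM, COX8 at 398.4 TPM and the zinc-binding COX5B at 356.4 TPM. A pair of complex IV subunits carry other names in FlyBase. These are levy, listed in RefSeq as COX6A, at 767.5 TPM, and cype, listed as COX6C, at 614.0 TPM.

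ATP synthase had 4 paralogues, at 36.5 TPM for ATPsynCF6L, 31.2 TPM for ATPsynGL, 8.67 TPM for ATPsynepsilonL and 7.48 TPM for ATPsynbetaL. The 11 ubiquitous subunits had a median of 530.3 TPM. ATPsynbeta, the catalytic subunit, was the most abundant of all 93 genes at 987.1 TPM and ranked 139 among all genes of the table. The gene for the α subunit, blw, is outside the symbol rule and had 977.7 TPM, so that α and β differed by less than counting error (β over α 1.01, interval 0.99 to 1.03). The catalytic part of the enzyme holds several copies of α and of β but a single γ, δ and ε. Whether copy number bears on these levels was not tested. ATPsyngamma had 472.6 TPM, ATPsyndelta 504.5 TPM and sun, the gene for ε, 453.3 TPM. ATPsynbeta was 2.09-fold above ATPsyngamma (interval 2.04 to 2.14). Among the membrane part, ATPsynF at 893.9 TPM and the ring subunit ATPsynC at 887.5 TPM were highest. ATPsyngamma, ATPsynCF6 at 439.9 TPM and ATPsynO at 417.4 TPM were the lowest of the 11.

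Each L paralogue was then set against its own partner, the gene whose symbol lacks the L. For the symbols COX6A, COX6C and ATPsynepsilon, which no member bears, the partner was levy, cype or sun. The 25 paralogues have 22 partners, since ND-51, COX7A and levy each serve 2 of them. All 25 were below their partner, as were 6 of 7 pairs of other genes in the table whose symbols differ in the same way. The median ratio was 11.3%, with a range of 0.76 to 28.3%, and 12 of 25 stood under 10% of their partner. For 11 of these 12 the whole 95% counting interval lay under 10%, and for 12 of the other 13 it lay above. Of the 7 other pairs, 28.6% had a ratio under 10%. These pairs were matched by symbol only and include ImpL1 and ImpL2, which are named for ecdysone induction. Added up within the pairs, the paralogues held 11.1% of the TPM of paralogues and partners.

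**Figure D2:**
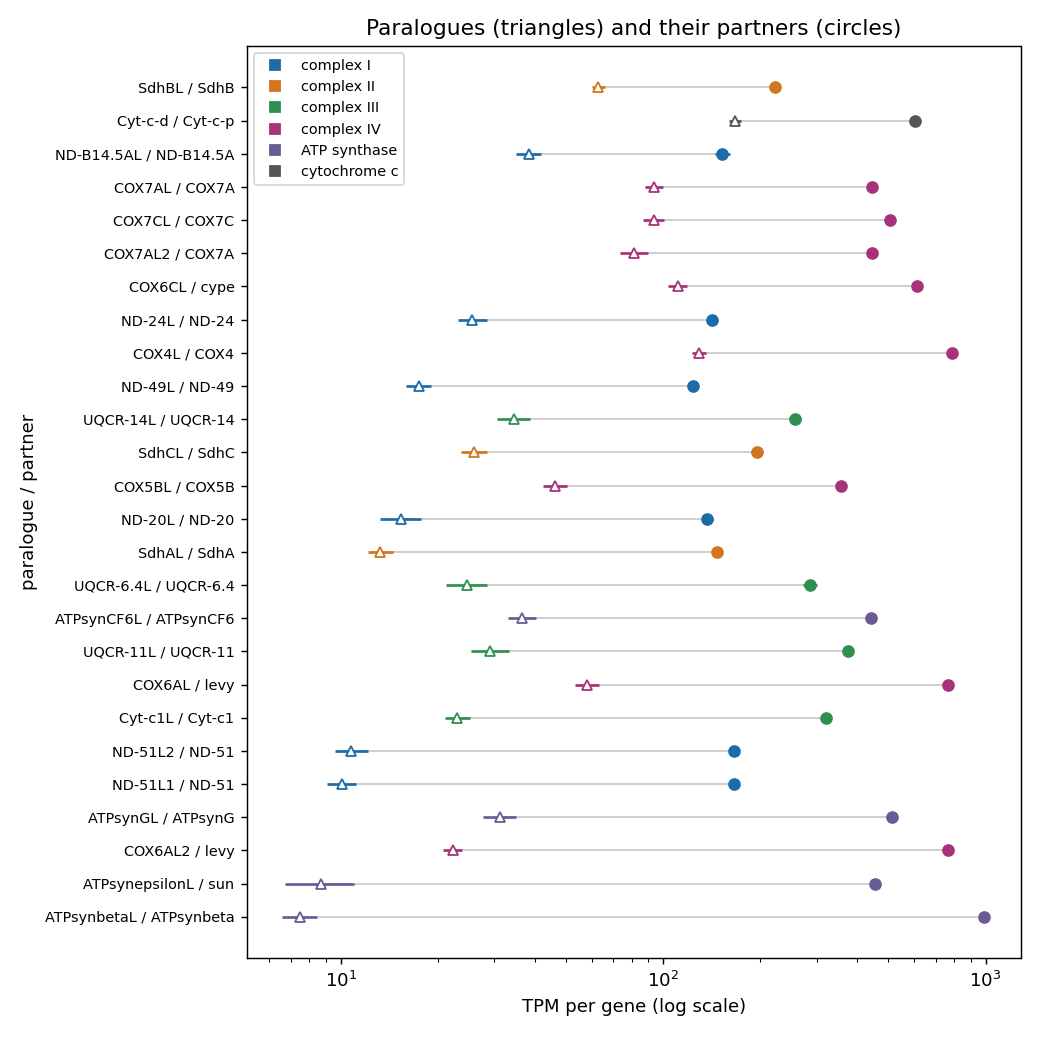
TPM per gene on a log axis for each paralogue (triangle) and its partner (circle), sorted by their ratio, with 95% Poisson intervals of the reads as bars. Every triangle lies left of its circle, and the distance is shortest for SdhBL at 63.0 against SdhB at 222.5 TPM.

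The 8 paralogues with the highest ratios were of complexes I, II and IV. SdhBL had 2011 reads and 63.0 TPM, against 4581 reads and 222.5 TPM for SdhB, a ratio of 28.3% (interval 26.9 to 29.8%). For reads without division by length it was 43.9%. ND-B14.5AL had 38.3 TPM and ND-B14.5A 152.7 TPM, a ratio of 25.1%. COX7AL reached 21.2% of COX7A and COX7AL2 18.3% of the same gene, with 93.9 and 81.3 TPM. For reads without division by length COX7AL2 stood at 8.80% of COX7A, under 10%. COX7CL at 93.4 TPM stood at 18.4% of COX7C, COX6CL at 111.0 TPM at 18.1% of cype and COX4L at 16.5% of COX4. ND-24L had 25.6 TPM and 18.0% of ND-24, which bears an iron-sulphur cluster next to the flavin. The counting intervals of COX7CL, COX7AL2, COX6CL, ND-24L and COX4L overlap, and that of COX7AL overlaps those of COX7CL, COX7AL2 and ND-24L. Overlap alone does not show that ratios are equal, and the order among these paralogues was not tested.

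The other paralogues above 10% were of complexes I to IV. ND-49L had 17.5 TPM and 14.1% of ND-49, UQCR-14L 13.5% of UQCR-14, SdhCL 13.3% of SdhC and COX5BL, at 46.3 TPM, 13.0% of COX5B. ND-20L, with 15.4 TPM from 187 reads, stood at 11.3% of ND-20, and its interval of 9.65 to 13.1% includes 10%. That ratio was 23.9% with the most abundant transcript of each gene alone and 7.59% for reads without division by length. For SdhCL, reads without division by length gave 19.9%.

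In ATP synthase, 4 of 4 paralogues stood under 10%, and the pair of lowest ratios of all was found there. ATPsynbetaL had 258 reads and 7.48 TPM, against 28209 reads and 987.1 TPM for ATPsynbeta. Its ratio was 0.76% (interval 0.67 to 0.86%), the smallest of all pairs. ATPsynepsilonL, with 68 reads the least covered of all members, had 1.91% of the level of sun (interval 1.48 to 2.43%), and 1.22% with the most abundant transcripts alone. ATPsynGL reached 6.07% of ATPsynG and ATPsynCF6L 8.30% of ATPsynCF6, a subunit of the stalk. In complex IV, COX6AL had 58.1 TPM (7.57% of levy) and COX6AL2 22.3 TPM (2.90%). The gene COX6AL2 overlaps Prp6 and Ir75d and has 2 transcripts of very different span, which held 57.4 and 42.6% of its TPM. Its ratio was 1.69% with the most abundant transcript of each gene alone and 13.0% for reads without division by length.

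The remaining paralogues under 10% belong to complexes I, II and III. ND-51L1 and ND-51L2, both copies of the flavin-binding subunit, had 10.1 and 10.8 TPM, or 6.08 and 6.49% of ND-51, with intervals that overlap. SdhAL had 9.01% of SdhA (interval 8.2 to 9.88%) by the sum of transcripts, but 18.1% with the most abundant transcript of each gene alone. UQCR-6.4L had 8.63% of UQCR-6.4 at 24.7 TPM (interval 7.36 to 10.1%), or 11.3% for reads without division by length. UQCR-11L had 7.77% of UQCR-11 at 29.1 TPM and Cyt-c1L 7.19% of Cyt-c1 at 23.0 TPM. With the most abundant transcripts alone, and again for reads without division by length, 25 of 25 paralogues were below their partner. Under both, 17 of the 25 ratios moved by at most 1.5 times and stayed on their side of 10%, and the values of the other 8 are those given above. Across the 25 pairs, the level of a paralogue and that of its partner had a Spearman coefficient of 0.36. All points share 1 library, and 3 partners enter more than once.

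**Figure D3:**
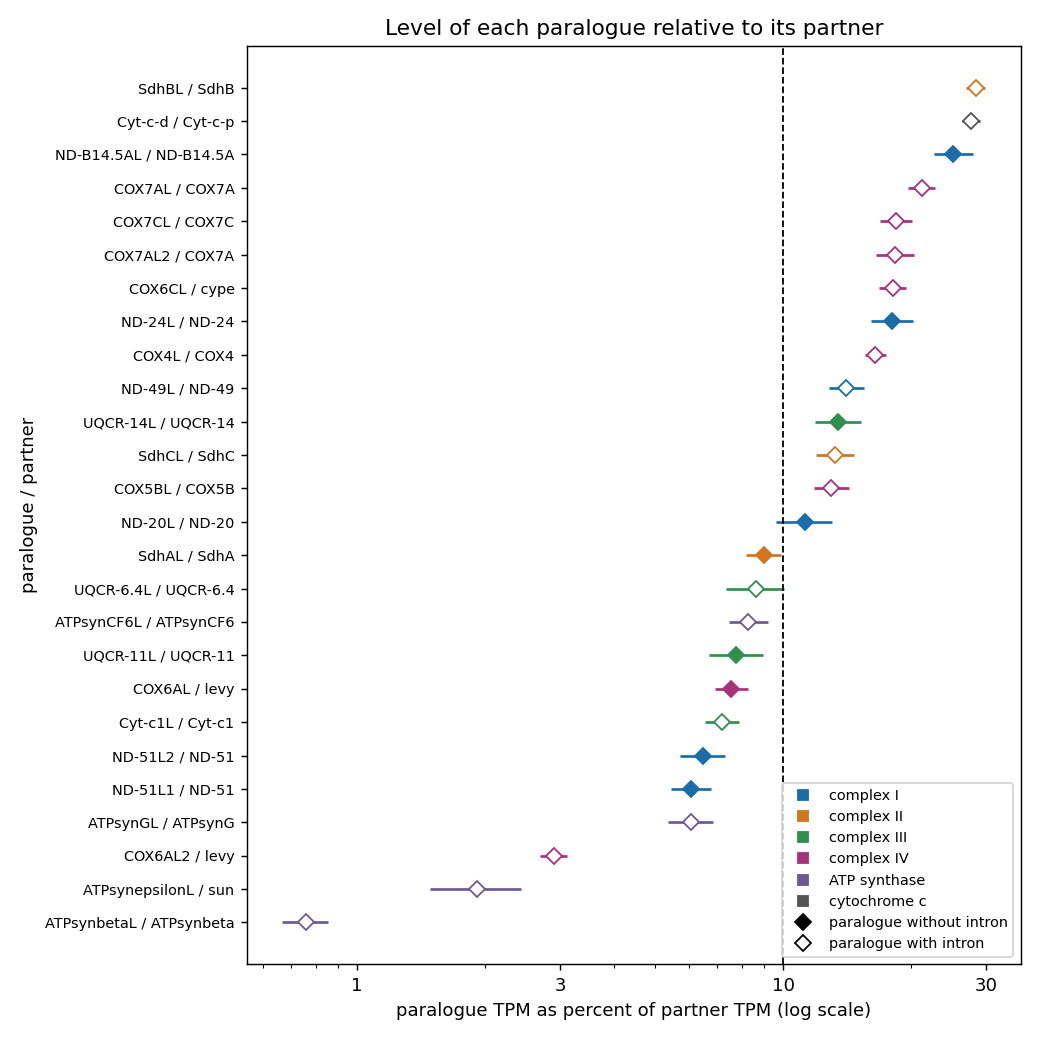
TPM of each paralogue as a percentage of the TPM of its partner, on a log axis, with exact 95% counting intervals. The dashed line marks 10%, filled symbols are paralogues whose most abundant transcript has no intron, and the 4 ATP synthase pairs all lie left of the line, ATPsynbetaL lowest at 0.76%.

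Cytochrome c is encoded by a pair of neighbouring genes on arm 2L, Cyt-c-d at 16715891 to 16719635 and Cyt-c-p at 16719932 to 16722644, 296 bases apart and on the plus strand. Cyt-c-d, known for its function in sperm differentiation, had 2168 reads and 166.9 TPM (interval 160.0 to 174.1). Cyt-c-p, the somatic form, had 6480 reads and 603.8 TPM (interval 589.2 to 618.7). The ratio was 27.6% (interval 26.3 to 29.0%), close to that of SdhBL, and 166.9 TPM was higher than the level of any L paralogue. One transcript held 97.7% of the TPM of Cyt-c-d and another 98.5% of that of Cyt-c-p.

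Gene structure, which the choice of members did not use, was read from the same table. The ratio of reads to FPKM gives the length of each transcript, and a length equal to the genomic span means that no intron is spliced out. The most abundant transcript had no intron in 9 of 25 L paralogues (36%) and in 0 of 65 ubiquitous subunits. Among protein-coding genes of the table the share was 13.6%. The 9 were ND-20L, ND-24L, ND-51L1, ND-51L2, ND-B14.5AL, SdhAL, UQCR-11L, UQCR-14L and COX6AL, and the partners of all 9 have introns. Complex I thus held 5 of them, of 6 paralogues, and ATP synthase none of 4. Of the other 16 paralogues, 7 lost only 49 to 64 bases by splicing, among them COX4L, COX7AL, ATPsynCF6L and ATPsynGL. A loss of under 70 bases was also found in 5 of 65 ubiquitous subunits, with ND-20 and SdhC among them, and in 12.5% of protein-coding genes. Spliced length was a median of 91.9% of the span in L paralogues and 74.7% in ubiquitous subunits. The ratio to the partner was a median of 9.01% for paralogues without intron and 13.1% for those with one, and the ranges overlapped (6.08 to 25.1% and 0.76 to 28.3%). Cyt-c-p also had no intron in its main transcript, as had NdufV3 and NP15.6, complex I subunits outside the symbol rule (given below). Other subunits outside the rule, blw, sun, levy, cype, ox and NdufA3, had introns in theirs.

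**Figure D4:**
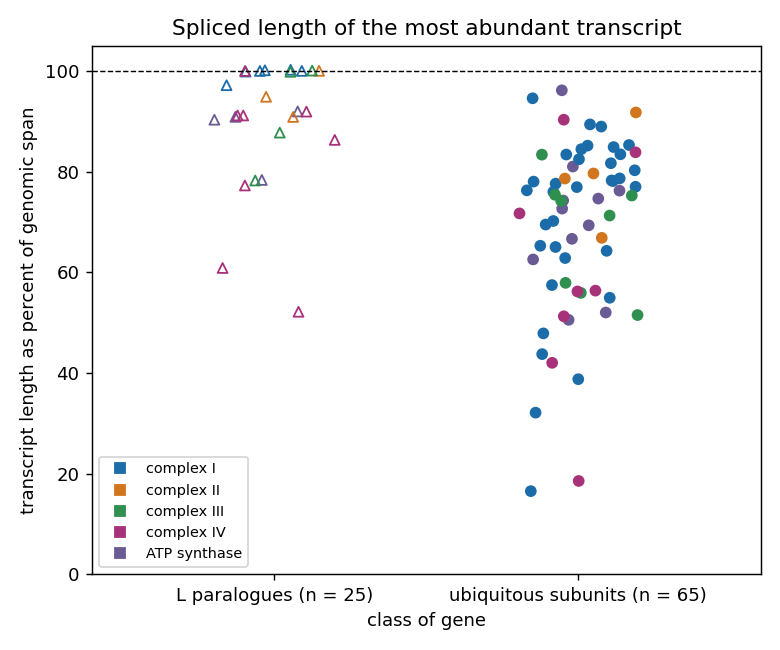
Spliced length of the most abundant transcript as a percentage of its genomic span. Triangles are L paralogues and circles ubiquitous subunits, coloured by complex, and the 9 triangles on the dashed line at 100% are the paralogues without an intron.

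Of 25 pairs, 18 (72%) were on different chromosome arms, as are 79.9% of all possible pairs of protein-coding genes. Among 5 paralogues whose partner is on the X chromosome (ND-20, ND-24, ND-B14.5A, UQCR-14 and sun), none was on the X, and 4 of these 5 had no intron, as had 5 of the 20 with a partner elsewhere. In all, 1 of 25 L paralogues was on the X (SdhBL, with its partner on 2R), and 12 of 65 ubiquitous subunits, where 15.7% of protein-coding genes lie. Both partners on chromosome 4, ATPsynbeta and ND-49, have their paralogues on chromosome 3, ATPsynbetaL on 3L at 16097834 to 16100088 and ND-49L on 3R at 25358285 to 25360034. COX5BL and COX7CL, by contrast, lie directly beside their partners. COX5BL is on 2L, 122 bases behind COX5B, and COX7CL on 2R, 281 bases behind COX7C.

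Members lay on both strands, 53 on the plus and 40 on the minus strand, with medians of 183.2 and 169.6 TPM. All genes of the table were split 8865 to 8833. A single transcript is listed for 16 of 25 L paralogues, 13 of 65 ubiquitous subunits and 49.6% of protein-coding genes. In 34 of the 63 members with more than 1, a single transcript held over 90% of the TPM. In 6 members no transcript reached 50%, among them SdhA, where the first held 49.7% and the second 35.6%, and ATPsynC, whose first held 49.1%. The same shares over all genes with more than 1 transcript were not computed, so these counts cannot be called particular to the members. Another gene on either strand overlaps 12 of the 25 L paralogues and 34 of the 65 ubiquitous subunits, as it does 46.9% of protein-coding genes. No source used here says whether reads were assigned by strand. The 13 paralogues without an overlap had a median of 31.2 TPM, and the 31 such ubiquitous subunits one of 336.9 TPM. Where neither gene of a pair overlaps another gene, 3 of 10 paralogues were under 10% of their partner.

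The genes of this paragraph, which work beside the chain or are subunits outside the symbol rule, lay between 18.7 and 1393 TPM. Of these, sesB and porin were above every member. The ADP/ATP carriers Ant2 and sesB had 76.8 and 1393 TPM, and the outer membrane channels Porin2 and porin 112.7 and 1114 TPM, so that Ant2, whose gene overlaps sesB, was at 5.51% of it and Porin2 at 10.1% of porin. Of the phosphate carriers, Mpcp1 had 174.5 TPM and Mpcp2 558.9 TPM. Among the genes listed as subunits under other names, ox of complex III had 230.5 TPM. Also listed there was knon, a testis gene needed for sperm mitochondria, at 31.5 TPM. The symbol knon does not end in L, so this gene was not among the L paralogues and was set against no partner. Surf1 and Scox, which serve assembly of complex IV, had 18.7 and 76.8 TPM. Another 7 genes were added after the files had been seen, for their names in RefSeq. The complex I subunits NdufA3, NdufV3 and NP15.6 had 161.7, 134.5 and 218.9 TPM, all within the range of the other subunits. CG40472, listed there as ND-AGGGL, had 119.7 TPM, against 222.0 TPM for ND-AGGG. Relative to that gene it was higher than any L paralogue among the members was to its partner. The assembly factors Cox10, Cox11 and Cox17 had 59.2, 22.1 and 140.1 TPM.

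Of 14 citrate cycle genes listed, 9 reached 100 TPM, with a median of 166.3 TPM. Malate dehydrogenase Mdh2 was highest at 478.4 TPM, followed by the aconitase mAcon1 at 317.6 TPM, Scsalpha1 at 299.4 TPM and ScsbetaA at 247.5 TPM. The isocitrate dehydrogenase subunits Idh3a, Idh3b and Idh3g had 222.4, 182.4 and 121.7 TPM, kdn, the citrate synthase, 173.6 TPM and Ogdh 159.0 TPM. mAcon2 at 29.3 TPM, ScsbetaG at 14.8 TPM and the fumarases Fum2, Fum3 and Fum4 at 18.2, 51.9 and 25.2 TPM were below 100 TPM. The 13 subunits encoded by the mitochondrial genome ranged much more widely than the nuclear ones, between 4.84 TPM (mt:ND6) and 8029 TPM (mt:CoIII). The level of mt:ND6 rests on 43 reads, and how reads were divided among adjacent mitochondrial genes was not assessed.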

How the data were processed

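mRNA of adult flies was measured in 1 library. The authors' deposited table gives counts, TPM and FPKM per transcript. The deposited counts are whole numbers without normalization and were treated as rounded expected counts, since overlapping isoforms carried very different values. The submitters' processing notes list CASAVA and HISAT2 with no role. No source used here gives the program that assigned reads, the build or the annotation. For each gene, the authors' deposited TPM was added up over transcripts. The authors' deposited FPKM was proportional to TPM (ratio 0.626 to 0.632 in transcripts of at least 1 TPM) and was used to derive transcript lengths. Reads over FPKM were scaled so that 1126 of 11753 transcripts with at least 300 reads had a length equal to their span within 0.5%. An intron was called absent within this tolerance, widened for rounding of counts, in genes whose most abundant transcript had at least 30 reads.

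The table lists 34736 transcripts of 17698 genes, with symbols for 17559. Positions were matched to the RefSeq gene table. The gene symbols of the fixed lists were matched as Ogdh for Nc73EF, nanos for nos and porin for Porin, and Fum1 was not analysed here. Partners of 4 paralogues came from RefSeq synonyms instead of protein identity, which could not be computed, and read sharing between similar copies was not assessed. Intervals are exact at 95% for whole counts, Poisson for a level and conditional binomial for a ratio. The ratio intervals were tried on simulated Poisson counts, the same assumption on which they are built. That trial therefore does not cover the assignment of reads among isoforms. With 1 library there is no test between groups. Genes were named by rule: all paralogues with partners, the 3 highest and 3 lowest ubiquitous subunits of each complex, and the listed genes of related functions. The members and lists were chosen with earlier results of these data known. Gene structure, position, strand and isoforms were described after the files had been seen. Alternatives covered the most abundant transcript, CPM (reads scaled to the library without a length term), TPM without mitochondrial transcripts, genes with at least 10 reads, genes without overlaps, the letter rule, Cyt-c-d and a pseudocount of 0.1 instead of 1. The small RNA library was not used. Python 3.11.15, pandas 2.3.3 and SciPy 1.17.1 were used.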

Additional observations from a re-analysis of the deposited data

How the results depend on the processing

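The difference between L paralogues and ubiquitous subunits kept its sign under every alternative run. Of 54 values under an alternative setting, 27 stayed within the counting interval of the main value or within 1.5 times the main count, and 27 moved. The setting of at least 10 reads could change nothing, since the least covered member had 68 reads, and its values count among those that stayed. Leaving out mitochondrial transcripts scales all nuclear genes alike, so the number of paralogues under 10% of their partner was fixed under it. Neither outcome is a check. Without mitochondrial transcripts each median rose by the same factor, so whether it moved depended only on the width of its interval. The CPM medians were held against intervals in TPM, an unlike unit, so their moves are no check either. The split of 27 and 27 is therefore no measure of robustness. With the most abundant transcript alone, the median was 222.5 TPM for ubiquitous subunits, 159.7 TPM for complex I, 337.4 TPM for complex III, 429.9 TPM for complex IV and 465.8 TPM for ATP synthase, and the difference of mean log2 levels was -3.00. In CPM, reads scaled to the library without division by length, the medians were 16.5 for L paralogues and 125.7 for ubiquitous subunits, with 84.9, 130.8, 232.3, 165.1 and 248.4 for complexes I, II, III and IV and ATP synthase, and the difference was -2.90. The order of complexes changed with the setting. Complex IV stood below complex III in CPM and above it in TPM, and below ATP synthase in CPM, with the most abundant transcript alone and among genes without overlaps (508.2 against 522.1 TPM), while the 2 were close in TPM (533.3 and 530.3). Of the paralogues, 12 were under 10% of their partner in TPM and in CPM, but in CPM COX7AL2 and ND-20L came in and COX6AL2 and UQCR-6.4L went out. With the most abundant transcript alone it was 11, without SdhAL. Without mitochondrial transcripts, complex III had 373.5 TPM, complex IV 553.6 TPM and ATP synthase 550.6 TPM. For genes that overlap no other, the median was 336.9 TPM for ubiquitous subunits, 195.8 TPM for complex II (SdhC alone), 439.4 TPM for complex III and 508.2 TPM for complex IV, the difference was -3.06, and 3 paralogues of 10 pairs stood under 10% of their partner. By the strict letter rule, which moves ND-MNLL to the paralogues and 4 symbols ending in a digit away from them, the ubiquitous median was 222.3 TPM and the difference -2.65. With Cyt-c-d among the paralogues the difference was -3.03, and with a pseudocount of 0.1 it was -3.16. Apart from the unit of CPM and the common scaling without mitochondrial transcripts, the cause of these shifts was not tested. No paired analysis was possible because the mRNA library is a single sample. Depth was no limit for detection, since the least covered member had 68 reads, but without replicates the differences among flies are unknown.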
